A study of Macaca mulatta with 6 samples.

Results

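The 8 genes described here are the clock activators BMAL1, CLOCK and NPAS2, the nuclear receptor gene RORA, the repressor gene NFIL3, and the 3 PAR-bZIP output factors DBP, TEF and HLF. They were taken by exact gene symbol from a count table of 28536 genes, and all 8 were found in it. The set was selected on the values of these same libraries, for higher BMAL1 and NPAS2 and lower TEF in the Oxy@Lipo/Gel group. Differences of these 8 genes between the groups are therefore given as a description, and their calls in the test over all genes are listed but support nothing.

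The series holds 6 RNA-seq libraries from tracheal tissue of rhesus monkeys (Macaca mulatta). The Oxy@Lipo/Gel group (3 libraries) was treated with Oxy@Lipo/Gel-coated tracheal lubricant in an endotracheal intubation model with general anaesthesia. The control group (3 libraries) received normal saline, and the labels do not say whether these animals were intubated. The tissue label reads "Lubricated catheter" for every library, and cell lines are mentioned in the extraction text. The sources used here give no age, sex, strain or number of animals. They do not state that each replicate is a separate animal, so the spread behind the SE and p-values may be in part technical. The groups share a sampling date, and the labels give no time of day.

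The circadian clock is a loop of transcription factors that runs in most tissues, the airway among them. BMAL1 pairs with CLOCK or with its paralog NPAS2, and the pair activates genes through E-box sites, including the PER and CRY genes, the NR1D genes and DBP. The PER and CRY proteins repress the pair, while NR1D proteins repress and ROR proteins activate BMAL1 and NPAS2 through shared ROR elements. DBP, TEF and HLF carry the rhythm onward by activating genes with D-box sites, which NFIL3 represses.

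Library totals were 21855604, 23405294 and 20089109 counts in Oxy@Lipo/Gel replicates 1, 2 and 3 and 22194965, 17097177 and 19592824 in control replicates 1, 2 and 3. The 8 genes had between 128 and 2006 counts in any library, which gives a counting error (1 SD) of 8.84% at the lowest and 2.23% at the highest. Levels are given in CPM, which here means counts scaled to the library total multiplied by the TMM scaling factor of that library. Tracheal marker sets were present in every library. The summed level of 5 multiciliated-cell genes ran from 1414 to 3093 CPM in Oxy@Lipo/Gel libraries and from 468 to 3183 CPM in control libraries. Some libraries stood apart. In control replicate 2 a single gene took 19.7% of the counts, against 7.73% to 10.4% in the others, and the basal epithelial genes were highest (11150 CPM, with 1515 to 6283 CPM in the others). Control replicate 3 held 5593 CPM of 3 thyroid genes, against 5.44 to 9.78 CPM elsewhere. Oxy@Lipo/Gel replicate 1 had 1792 CPM of 6 smooth muscle genes, against 14040 and 19050 CPM in replicates 2 and 3. Because these are bulk samples, fewer cells of a type and less RNA per cell cannot be told apart.

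In the Oxy@Lipo/Gel libraries BMAL1 and NPAS2 stood more than 3 times as high as in control libraries, while CLOCK and RORA were at nearly the same level. Among the output factors, TEF was far lower, DBP lower, and HLF and NFIL3 overlapped between the groups. All 8 genes passed the filter on low counts. In the all-gene test (edgeR quasi-likelihood, Benjamini-Hochberg adjusted p under 0.05) 2 of the 8 were called higher, BMAL1 and NPAS2, and 1 lower, TEF. Of all 18676 genes tested, 1.54% were called, 0.851% higher and 0.685% lower, and since the genes were chosen on this contrast nothing is read from their share. With DESeq2, which called 11.8% of the genes it tested, DBP was called lower as well. The calls did not hold with some libraries left out. edgeR called none of the 8 without control replicate 1, control replicate 3, Oxy@Lipo/Gel replicate 2 or Oxy@Lipo/Gel replicate 3. This loss was not particular to the 8: in the first 3 of these fits edgeR called 0 genes in all, and in the last 20. Without control replicate 2, BMAL1 and TEF were called.

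**Figure D1:**
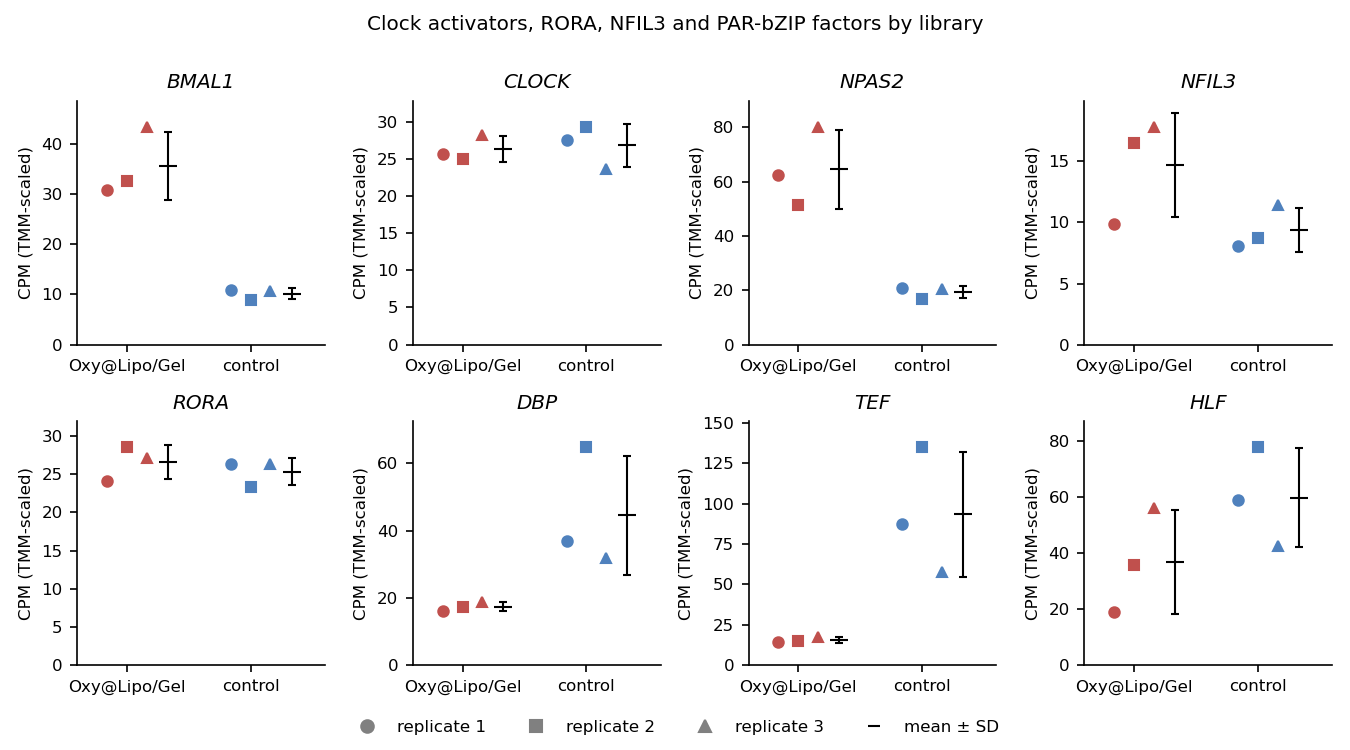
CPM (scaled by TMM) of each of the 8 genes in each library, Oxy@Lipo/Gel on the left and control on the right; points are libraries, their shape is the replicate number, and the bar is the mean ± SD (n = 3). BMAL1 and NPAS2 lie higher in all 3 Oxy@Lipo/Gel libraries, TEF and DBP lie higher in all 3 control libraries, and the groups of the other 4 genes overlap.

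BMAL1 encodes the obligate partner of both CLOCK and NPAS2. It measured 30.8, 32.6 and 43.3 CPM in Oxy@Lipo/Gel replicates 1, 2 and 3, against 10.9, 8.96 and 10.7 CPM in control replicates 1, 2 and 3. The lowest Oxy@Lipo/Gel library was far above the highest control library, and Oxy@Lipo/Gel replicate 3 was the highest of all. The log2 fold change was 1.80 ± 0.19 (SE), a level 3.49 times that of control. With any single library left out, it stayed between 1.64 and 1.93.

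NPAS2, the bHLH-PAS protein that can take the place of CLOCK, behaved much like BMAL1. Its levels were 62.3, 51.3 and 80.0 CPM in Oxy@Lipo/Gel libraries, against 21.0, 17.0 and 20.5 CPM in control libraries. The groups did not overlap, and Oxy@Lipo/Gel replicate 3 was again the highest. This gave a log2 fold change of 1.73 ± 0.21 (SE), or 3.31 times the control level, with 1.54 to 1.94 when single libraries were left out.

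CLOCK, the best known partner of BMAL1, was measured at 25.7, 24.9 and 28.3 CPM in Oxy@Lipo/Gel libraries and at 27.5, 29.3 and 23.6 CPM in control libraries. The Oxy@Lipo/Gel range lay within the control range. The log2 fold change of -0.03 ± 0.15 (SE) took the other sign with median-of-ratios size factors (0.02) and ran from -0.12 to 0.09 with single libraries left out. RORA, the retinoid-related orphan receptor that activates BMAL1 transcription, was measured at 24.1, 28.5 and 27.2 CPM in Oxy@Lipo/Gel libraries and at 26.4, 23.3 and 26.4 CPM in control libraries. These ranges overlapped as well, with a log2 fold change of 0.07 ± 0.14 (SE). CLOCK and RORA also varied little within groups. Their coefficients of variation were 6.66% and 8.51% in Oxy@Lipo/Gel libraries and 10.7% and 7.06% in control libraries. The median over the 13359 genes with a mean of at least 5 CPM was 14.1% in Oxy@Lipo/Gel libraries and 19.8% in control libraries.

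Ratios within a library do not depend on how libraries are scaled. These were formed from FPKM, which divides counts by gene length as well as by library size, so that genes of different length could be compared. NPAS2 stood at 5.77, 4.90 and 6.74 times the FPKM of CLOCK in Oxy@Lipo/Gel libraries, against 1.81, 1.38 and 2.06 times in control libraries. This ratio was higher in each Oxy@Lipo/Gel library than in any control library, and it holds NPAS2, on which the set was selected. That it lies above 1 in control libraries rests on the deposited gene lengths (4584 bases for NPAS2 and 10908 for CLOCK), since in CPM, without length, CLOCK was the higher of the pair in all 3 control libraries. Which annotation gave these lengths is not given in the sources used here. The ratio of BMAL1 to NPAS2 was 0.119, 0.153 and 0.130 in Oxy@Lipo/Gel libraries and 0.124, 0.127 and 0.125 in control libraries. This ratio was nearly fixed within the control group (mean 0.125 ± 0.00123 SD, n = 3), and the wider Oxy@Lipo/Gel range enclosed the control values. Both of its genes were selected for higher levels in Oxy@Lipo/Gel libraries, so a like ratio in both groups follows in part from the selection.

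**Figure D2:**
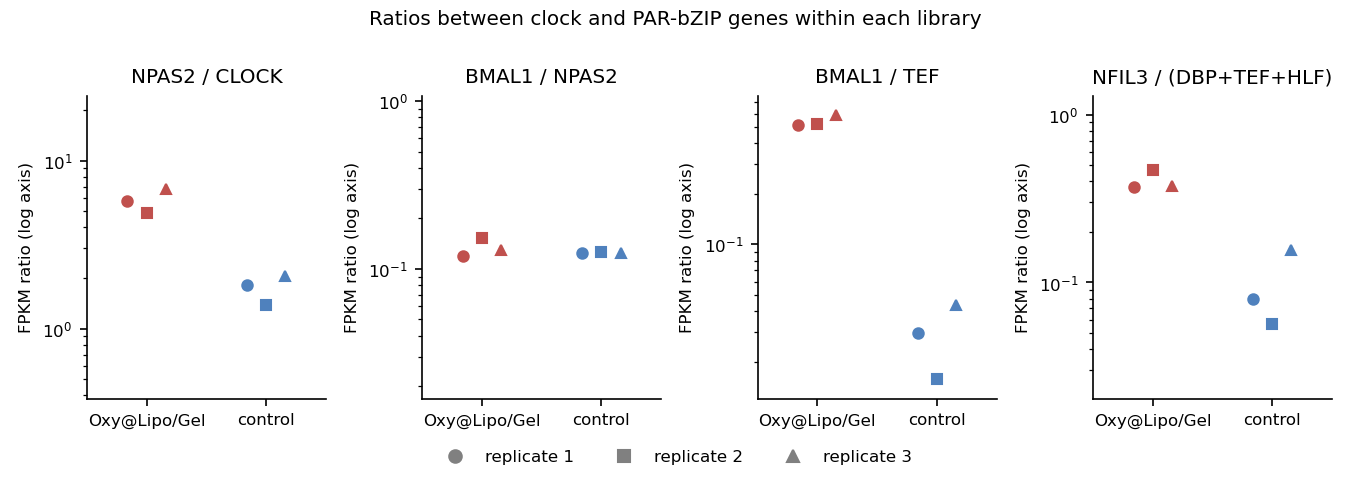
Ratio of FPKM between genes within each library on log axes that all span the same number of folds, Oxy@Lipo/Gel on the left and control on the right; points are libraries. NPAS2 over CLOCK, BMAL1 over TEF and NFIL3 over the PAR-bZIP sum, each of which holds a gene the set was selected on, separate the groups. BMAL1 over NPAS2, whose genes were both selected for higher levels in Oxy@Lipo/Gel libraries, lies between 0.119 and 0.153 in all 6 libraries.

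TEF, thyrotroph embryonic factor, was the PAR-bZIP gene with the largest difference. Its levels were 14.2, 14.9 and 17.5 CPM in Oxy@Lipo/Gel libraries, against 87.3, 135 and 57.9 CPM in control libraries. The Oxy@Lipo/Gel libraries lay close together and below every control library, whereas the control libraries differed among themselves, with replicate 2 highest and replicate 3 lowest. The log2 fold change was -2.58 ± 0.32 (SE), a level 6.00-fold lower, and stayed between -2.84 (without control replicate 3) and -2.23 (without control replicate 2).

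DBP, the D-site binding protein and a direct E-box target of the clock activators, was measured at 16.2, 17.1 and 18.8 CPM in Oxy@Lipo/Gel libraries, against 36.8, 64.8 and 32.0 CPM in control libraries. The groups did not overlap, and control replicate 2 was again the highest. DBP had a log2 fold change of -1.36 ± 0.28 (SE), and -0.99 without control replicate 2. In all, 4 of the 8 genes (BMAL1, NPAS2, DBP and TEF) showed no overlap between the groups, and 29.9% of the tested genes did so.

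HLF, hepatic leukaemia factor, was measured at 18.8, 35.7 and 56.0 CPM in Oxy@Lipo/Gel libraries and at 59.0, 77.8 and 42.5 CPM in control libraries. Oxy@Lipo/Gel replicate 3 lay above control replicate 3, so the groups overlapped. The log2 fold change was -0.70 ± 0.41 (SE), -0.39 without Oxy@Lipo/Gel replicate 1 and -1.13 without Oxy@Lipo/Gel replicate 3. HLF had the widest spread of the 8 genes in the Oxy@Lipo/Gel group, a coefficient of variation of 50.6% against 29.6% in control libraries. Oxy@Lipo/Gel replicate 1, which had the lowest HLF level, also had the lowest smooth muscle sum of its group. The fibroblast, endothelial, skeletal muscle, thyroid, adipocyte and Schwann cell marker sums were lowest in that replicate as well. Its basal, multiciliated and cartilage marker sums were the highest of its group. In control libraries the smooth muscle sum was 2481, 1237 and 843 CPM in replicates 1, 2 and 3. There HLF was highest in replicate 2 and lowest, like that sum, in replicate 3. The part of tissue make-up in the HLF values was not tested.

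The PAR-bZIP pool differed in size and composition between the groups. Both measures hold TEF, which was selected for lower levels in Oxy@Lipo/Gel libraries, so these differences follow in part from the selection. The summed FPKM of TEF, HLF and DBP was 11.0, 13.5 and 16.5 in Oxy@Lipo/Gel libraries, against 39.0, 49.6 and 29.2 in control libraries. TEF made up 31.5%, 24.8% and 21.7% of this sum in Oxy@Lipo/Gel libraries, and 51.1%, 51.7% and 47.0% in control libraries. The share of HLF was 33.3%, 47.4% and 55.5% in Oxy@Lipo/Gel libraries, against 27.7%, 23.9% and 27.6% in control libraries. The share of DBP overlapped between the groups, at 22.8% to 35.1% in Oxy@Lipo/Gel libraries and 21.2% to 25.5% in control libraries. TEF was thus the leading PAR-bZIP transcript per length in every control library. In Oxy@Lipo/Gel libraries it was the lowest of the 3 genes throughout, and HLF led in replicates 2 and 3 and DBP in replicate 1.

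**Figure D3:**
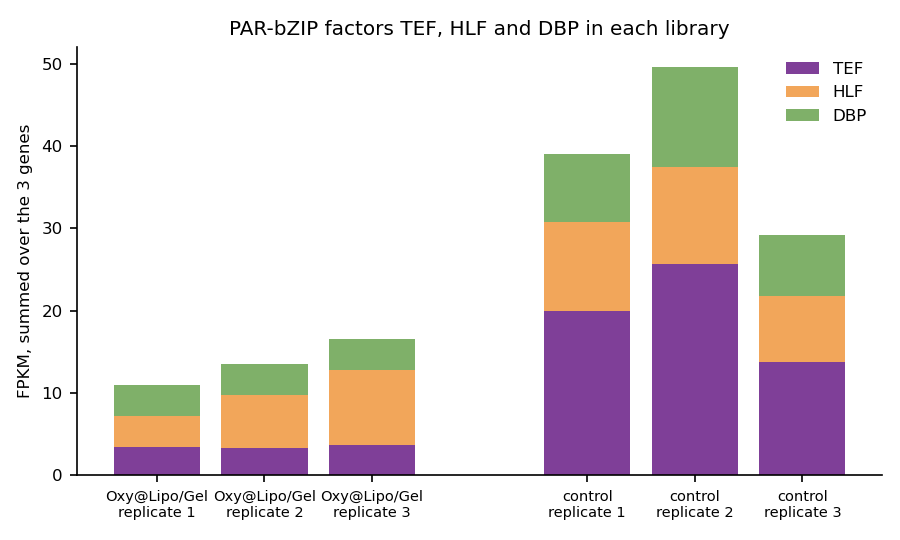
FPKM of TEF, HLF and DBP stacked for each library, Oxy@Lipo/Gel replicates on the left and control replicates on the right. The whole bar reaches 11.0 to 16.5 FPKM in Oxy@Lipo/Gel libraries and 29.2 to 49.6 FPKM in control libraries, and the TEF segment is the largest in each control library. TEF was selected for lower levels in Oxy@Lipo/Gel libraries, so these differences follow in part from the selection.

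NFIL3, a bZIP repressor that competes with the PAR-bZIP factors for D-box sites, was measured at 9.84, 16.5 and 17.8 CPM in Oxy@Lipo/Gel libraries and at 8.05, 8.69 and 11.4 CPM in control libraries. Oxy@Lipo/Gel replicate 1 lay within the control range and replicates 2 and 3 above it. NFIL3 had a log2 fold change of 0.65 ± 0.28 (SE), and 0.87 without Oxy@Lipo/Gel replicate 1. Relative to the summed FPKM of DBP, TEF and HLF, NFIL3 stood at 0.370, 0.465 and 0.374 in Oxy@Lipo/Gel libraries, against 0.0800, 0.0565 and 0.157 in control libraries. The groups did not overlap in this ratio, whose denominator holds TEF, a gene the set was selected on, while NFIL3 itself overlapped. BMAL1 over TEF, a ratio of genes that were selected for opposite differences, was 0.513, 0.519 and 0.586 in Oxy@Lipo/Gel libraries and 0.0296, 0.0158 and 0.0437 in control libraries.

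Per length, the order of the 8 genes differed between the groups. In Oxy@Lipo/Gel libraries NPAS2 led with 14.2 ± 2.54 FPKM (SD, n = 3 here and below), followed by HLF (6.41 ± 2.76), NFIL3 (5.50 ± 1.25), DBP (3.80 ± 0.0524), TEF (3.46 ± 0.127), CLOCK (2.44 ± 0.144), RORA (2.39 ± 0.166) and BMAL1 (1.87 ± 0.203). In control libraries TEF led with 19.8 ± 5.97 FPKM, followed by HLF (10.2 ± 1.96), DBP (9.26 ± 2.49), NPAS2 (4.24 ± 0.912), NFIL3 (3.50 ± 0.951), CLOCK (2.42 ± 0.169), RORA (2.24 ± 0.401) and BMAL1 (0.531 ± 0.110). Neighbours whose ranges overlapped were HLF and NFIL3 and CLOCK and RORA in the Oxy@Lipo/Gel group. In the control group they were HLF and DBP, NPAS2 and NFIL3, and CLOCK and RORA. NPAS2 had rank 1 in each Oxy@Lipo/Gel library and rank 4 in each control library. TEF had rank 5 in each Oxy@Lipo/Gel library and rank 1 in each control library. NPAS2 and TEF were selected on their difference between the groups, so these changes of rank follow in part from the selection. BMAL1 was the lowest of the 8 in every library. Its deposited gene length, 19100 bases, is the longest of the 8, which range from 2672 bases for NFIL3, and its FPKM depends on that length, as the whole order depends on the deposited lengths.

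**Figure D4:**
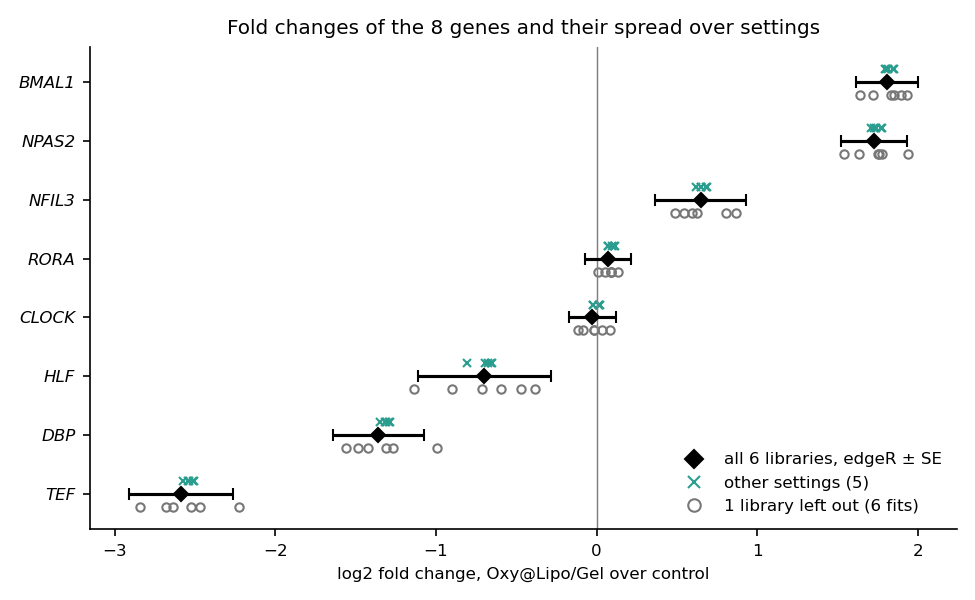
Log2 fold change (Oxy@Lipo/Gel over control) of each of the 8 genes; diamonds with bars are edgeR estimates ± SE from all 6 libraries, crosses are 5 other settings and open circles are fits with 1 library left out. BMAL1 and NPAS2 stay above 1.5, DBP and TEF stay below -0.9, and CLOCK lies on both sides of 0.

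The 8 genes were set beside 55 other genes of the pathway in 7 lists, of which 45 could be tested. The lists were chosen with earlier results of these data known, so their calls and p-values are a description and no independent support. In the repressor arm, 4 of 10 tested genes fell, 0 rose and 6 did not pass, with a median log2 fold change of -1.11, against -0.04 over all genes tested. PER2, a core repressor, measured 26.2 ± 5.15 CPM in Oxy@Lipo/Gel and 102 ± 30.0 CPM in control libraries (edgeR adjusted p = 0.0325). CIART, a repressor of the BMAL1 pair, measured 2.96 ± 0.316 CPM in Oxy@Lipo/Gel and 22.7 ± 12.4 CPM in control libraries (edgeR adjusted p = 0.0344). PER3 and NR1D2 also fell, with log2 fold changes of -2.17 ± 0.33 and -1.96 ± 0.27 (SE). These 4 calls fell to 2 without Oxy@Lipo/Gel replicate 1 and to 0 without Oxy@Lipo/Gel replicate 2 or 3 or control replicate 1 or 3. The ratio of RORA to the summed FPKM of NR1D1 and NR1D2, which bind the same elements, was 0.178, 0.180 and 0.173 in Oxy@Lipo/Gel libraries, against 0.0785, 0.0401 and 0.0958 in control libraries. This ratio was chosen after its values were seen.

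Among the other lists edgeR called 0 genes, and single genes are given with their values. Of 7 further E-box outputs 0 passed, with a median of -0.32. The smallest p was that of NAMPT, the rate-limiting enzyme of NAD salvage, at 24.0 ± 0.695 CPM in Oxy@Lipo/Gel and 39.5 ± 4.75 CPM in control libraries (edgeR adjusted p = 0.0677). Of 11 genes known as PAR-bZIP targets from mouse liver and brain only 4 could be tested, 0 passed, and the median was 0.54. The smallest p in that list was that of NR1I3 (edgeR adjusted p = 0.380), which had 70 counts over all 6 libraries. ALAS1, the first enzyme of haem synthesis, and PDXK, pyridoxal kinase, had log2 fold changes of -0.02 ± 0.19 and 0.20 ± 0.18 (SE).

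In the C/EBP family, bZIP factors whose sites resemble those of the PAR-bZIP factors, 0 of 4 tested genes passed and the groups of all 4 did not overlap (29.9% over all tested genes), with a median of -0.75. CEBPD measured 121 ± 20.1 CPM in Oxy@Lipo/Gel and 287 ± 63.0 CPM in control libraries (edgeR adjusted p = 0.0611). The lists of clock kinases, phosphatases and ubiquitin ligases (0 of 9, median -0.10), of coactivators and corepressors (0 of 9, median -0.30, smallest p SIRT1) and of other ROR and BMAL paralogs (0 of 2, smallest p BMAL2) had no called gene. In the 6 lists outside the repressor arm, 8 of 35 tested genes had an unadjusted p under 0.05 in edgeR (4356 of 18676 over all tested genes). DESeq2 called 5 genes of these lists (11.8% over all genes it tested), all lower, with CEBPB, CEBPD, KLF9 and NAMPT among them. BMAL2, the paralog of BMAL1, was measured at 11.2 ± 1.02 CPM in Oxy@Lipo/Gel libraries and at 14.3 ± 3.11 CPM in control libraries.

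**Figure D5:**
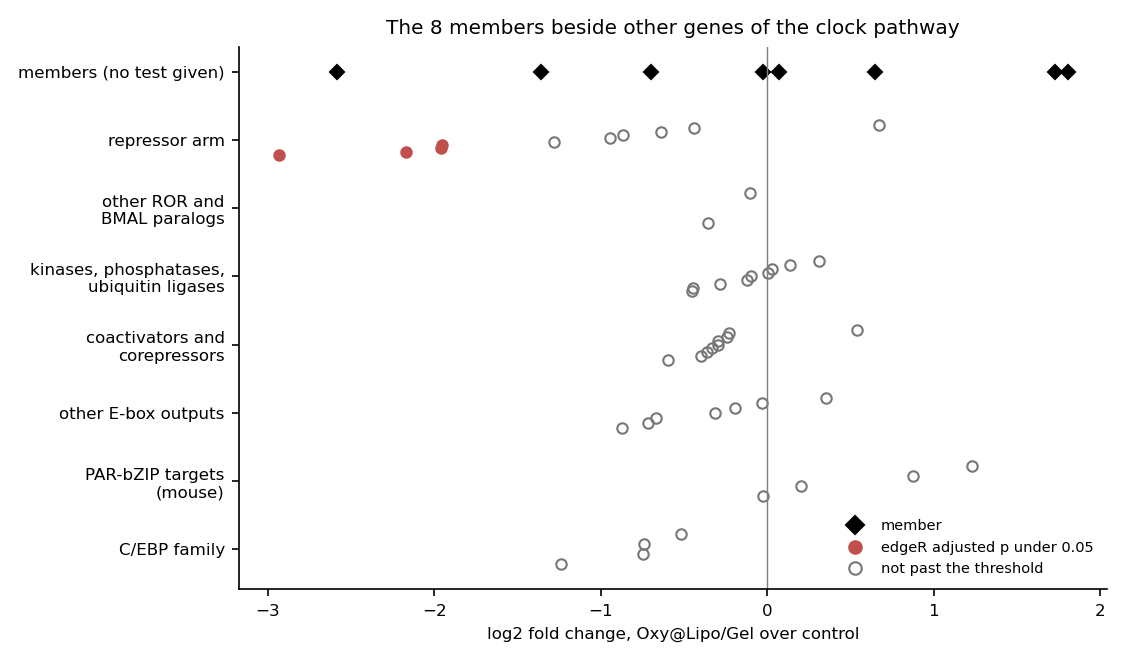
Log2 fold change (Oxy@Lipo/Gel over control) of the 8 genes (diamonds, no test given) above the tested genes of 7 pathway lists (circles, filled where the edgeR adjusted p was under 0.05). The 4 filled circles, all in the repressor arm, lie between -2.94 and -1.95. The lists were chosen with earlier results of these data known.

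Genes of other groups were also called, in lists that were likewise chosen with earlier results of these data known. Of 9 tested glucocorticoid-induced genes, 2 of which are also in the clock lists, 4 fell in edgeR (FKBP5, TSC22D3, ZBTB16 and ANGPTL4). The log2 fold change was below 0 for 8 of the 9 (53.0% over all tested genes). The groups of 6 of the 9 did not overlap (29.9% over all tested genes). The summed level of all 9 was 787 to 1177 CPM in Oxy@Lipo/Gel and 1090 to 2007 CPM in control libraries, ranges that overlapped. All 6 B-cell markers were called higher, with sums of 21.8 to 62.9 CPM in Oxy@Lipo/Gel and 3.52 to 3.79 CPM in control libraries. Cartilage markers (3 of 6 called higher) summed to 195 to 534 CPM in Oxy@Lipo/Gel and 11.4 to 62.8 CPM in control libraries. Submucosal gland markers (3 of 5 called higher) summed to 9676 to 29630 CPM in Oxy@Lipo/Gel and 518 to 1459 CPM in control libraries. edgeR called 0 of 44 tested smooth muscle, basal, multiciliated, fibroblast, endothelial, skeletal muscle, thyroid, adipocyte, Schwann cell, macrophage and T-cell markers. Of the 44, 19 had an unadjusted p under 0.05 in edgeR (4356 of 18676 over all tested genes). DESeq2 called 11 of these markers (11.8% over all genes it tested), with all 6 smooth muscle genes among them. The median log2 fold change of the 6 smooth muscle genes was 2.77, and their sums overlapped between the groups. The glucocorticoid, B-cell, cartilage and gland calls were all lost without Oxy@Lipo/Gel replicate 2, control replicate 1 or control replicate 3. Without Oxy@Lipo/Gel replicate 3 only 3 B-cell calls were left among these 4 lists, and without control replicate 2 only 3 glucocorticoid and 2 cartilage calls were. No marker in the table was at 0 in all 6 libraries. The part of these gene groups in the values of the clock genes was not tested.

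The genes whose pattern over the 6 libraries lay nearest to 3 of the members were found by the root-mean-square difference of log2 CPM, each gene centred on its own mean. Among 13230 named genes that averaged 1 log2 CPM or more, the nearest to BMAL1 were TCEANC, the runt-family transcription factor gene RUNX3, and NPAS2, with differences of 0.0846, 0.0930 and 0.115. The nearest to NPAS2 were BMAL1 (0.115), MME, which encodes the peptidase neprilysin (0.119), and RUNX3 (0.120). Both activators were thus among each other's 3 nearest genes, while CLOCK lay at rank 4887 from BMAL1. The nearest to TEF were CIART (0.177), the bradykinin receptor gene BDKRB1 (0.228) and PER3 (0.278), and DBP came at rank 80 and HLF at rank 716. With 6 libraries in 2 groups, the difference between the groups makes up most of such a likeness. BMAL1, NPAS2 and TEF were selected on that difference, so these ranks are a description and nothing is read from them.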

How the data were processed

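Poly(A)-selected, strand-marked, paired-end RNA libraries were sequenced, per the labels' protocols. The deposited tables hold whole-number counts and FPKM per gene. The sources used here give no aligner, no counter and no use of strand. The submitters' processing notes name the builds GRCm38, rheMac8 and Mmul_8.0.1 without a role. For each of the 8 genes the deposited counts and FPKM gave 1 gene length in all libraries, so the FPKM carries no independent measurement.

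Groups and replicate numbers came from the labels. Counts were tested with edgeR 4.0.16 (R 4.3.3): TMM scaling, filterByExpr (minimum count 10, minimum total 15), a quasi-likelihood F test with no term but group, and p-values adjusted after Benjamini-Hochberg over 18676 genes. The SE is the log2 fold change divided by the square root of F. DESeq2 1.42.0 was an alternative. The fit was tested on simulated data with the same spread set for all genes. The spread of these replicates differs by gene, so nothing is read from that test here. Replicates differed by more than sampling noise (chi-square divided by its degrees of freedom was at least 46.2).

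The 8 genes and all lists were chosen with earlier results of these data known. Of the lists, every called gene and otherwise the gene with the smallest p was named, except some that are not reported here; ALAS1, PDXK and the NR1D1 ratio were chosen after their values were seen. The rhesus reference table (T2T-MMU8v2.0) was used for names and neighbours: all 8 genes matched, BMAL1 under its older symbol ARNTL. In it BMAL1, NPAS2, RORA and TEF overlap other genes, so some counts may be shared. None of those other genes is in the count table under its symbol, and the submitters name other builds. Whether counts were shared could therefore not be checked. No sequence or coordinate was used here.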

Additional observations from a re-analysis of the deposited data

How the results depend on the processing

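All 88 recomputed fold changes of the 8 genes (5 settings and 6 fits without 1 library, for each gene) lay within 1 replicate SD of the values above. Of these, 5 took the other sign, all for CLOCK. Leaving out 1 of 3 libraries can hardly move a group mean by 1 such SD. The fits without 1 library could therefore hardly fall outside it, and nothing is read from their doing so. Counts of called genes changed with the setting. With library totals in place of TMM, edgeR called 183 genes instead of 287, and the same 3 of the 8 clock genes. DESeq2 called 2460 genes, 4 of the 8 and 11 of the pathway list genes, instead of 4. With the replicate number as a block, edgeR called 0 genes in all, 0 of the 8 and 0 of the pathway list genes, with 2866 genes at an unadjusted p under 0.05, 4 of the 8 among them. The labels state no pairing of the libraries. Same-numbered deviations from the group mean correlated at 0.234, -0.350 and -0.162 for replicates 1, 2 and 3, and different-numbered ones at -0.300 to 0.370. With 3 libraries per group, these values cannot settle whether the numbers pair the libraries. With 1 library left out, the calls ran from 0 to 628 genes, from 0 to 3 of the 8 and from 0 to 4 of the pathway list. All were 0 when Oxy@Lipo/Gel replicate 2, control replicate 1 or control replicate 3 was left out (2271, 3189 and 4858 genes at an unadjusted p under 0.05). The calls among the 8 were also 0 without Oxy@Lipo/Gel replicate 3, which left 20 genes called in all. The causes of these differences were not tested.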
